A study of Caenorhabditis elegans with 2 samples.

Results

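Of the 3031 BLMP-1 binding summits on the nuclear chromosomes of Caenorhabditis elegans, 342 lay in the promoter windows of 2 or more protein-coding genes at once. A promoter window spanned each annotated transcript start of a gene, reaching 1000 bp upstream of it and 200 bp downstream, and a summit is the base at which a called peak is highest. The shared summits were 22.6% of the 1515 summits in any promoter window (95% Wilson interval 20.5 to 24.7), and the other 1173 lay in the window of 1 gene. Binding was measured by ChIP-seq, in which DNA bound by a protein is precipitated with an antibody and sequenced, from intact hermaphrodite L2 larvae of strain OP109, whose genotype is unc-119(ed3) III; wgIs109. The labels give blmp-1 as the antibody. These animals carry a transgene that makes BLMP-1 fused at its C terminus to GFP and FLAG. The age of the larvae is given as unknown, and the sources used here do not name the promoter that drives the transgene. There were 2 biological replicates of this 1 group, numbered 2 and 3, and no other genotype, stage or treatment to compare. The thresholded list of 3060 peaks, made from both replicates, gave the summits, and 29 peaks on mitochondrial DNA were left out. In whole animals, strong binding in few cells and weak binding in many cells cannot be told apart. The lists hold no read counts, so depth is unknown, and intervals cover only the counting of summits.

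BLMP-1 is the worm relative of mammalian PRDM1 (Blimp-1), a zinc finger transcription factor, and acts in the epidermis and in developmental timing. In a compact genome such as that of the worm, neighbouring genes on opposite strands often start close together and point away from each other, so that 1 stretch of DNA serves as promoter for both. Such pairs are called head-to-head here. Neighbours on the same strand can also have starts close together, and many worm genes lie in operons whose downstream genes are separated from the upstream one by trans-splicing, which makes annotated starts approximate. A summit in a shared window does not tell which of the genes, if any, responds to the factor.

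The sequences around the summits on which the account turns are shown as 101 bp windows centred on the summit, on the plus strand of build ce11, read from the RefSeq copy of WBcel235. They are the 2 strongest head-to-head summits (K08F9.4/K08F9.1 at chrV:15143949-15144049 and tag-340/nhl-2 at chrIII:4899886-4899986), the strongest next to a ribosomal protein gene (Y17G9B.5/rpl-20 at chrIV:4750012-4750112), and the 2 strongest head-to-head summits with a PRDM1 core word (nuo-1/rpl-36.A at chrII:11097497-11097597 and C02E7.7/C02E7.6 at chrV:4918793-4918893). The strongest same-strand summit (sec-61.G/F32D8.13 at chrV:10897327-10897427) and the strongest in windows of 3 genes (rps-14/rpl-36/ndab-2 at chrIII:7179780-7179880) complete the set. Capitals mark a PRDM1 core word, AGTGAAAG or AGCGAAAG, or the words AGACGCAG and GAGAGAGA, each searched on both strands, so that a match on the minus strand reads as the reverse complement.
K08F9.4/K08F9.1: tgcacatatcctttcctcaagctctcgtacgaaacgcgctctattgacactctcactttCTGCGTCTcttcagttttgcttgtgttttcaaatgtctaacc
tag-340/nhl-2: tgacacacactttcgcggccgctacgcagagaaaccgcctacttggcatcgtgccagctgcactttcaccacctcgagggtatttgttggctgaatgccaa
Y17G9B.5/rpl-20: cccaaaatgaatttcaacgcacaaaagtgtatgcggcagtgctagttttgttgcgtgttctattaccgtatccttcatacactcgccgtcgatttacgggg
nuo-1/rpl-36.A: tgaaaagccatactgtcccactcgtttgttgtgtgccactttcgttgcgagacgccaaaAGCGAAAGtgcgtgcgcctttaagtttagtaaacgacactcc
C02E7.7/C02E7.6: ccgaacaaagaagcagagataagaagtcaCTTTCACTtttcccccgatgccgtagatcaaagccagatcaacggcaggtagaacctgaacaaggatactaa
sec-61.G/F32D8.13: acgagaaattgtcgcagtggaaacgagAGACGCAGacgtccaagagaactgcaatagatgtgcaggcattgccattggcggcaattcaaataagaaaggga
rps-14/rpl-36/ndab-2: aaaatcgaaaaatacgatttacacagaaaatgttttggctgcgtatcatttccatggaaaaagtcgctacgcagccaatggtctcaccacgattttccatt
The core words stood in the nuo-1/rpl-36.A window in forward orientation and in the C02E7.7/C02E7.6 window in reverse. AGACGCAG stood in the K08F9.4/K08F9.1 window in reverse and in the sec-61.G/F32D8.13 window forward. None of the 4 words stood in the other 3 windows.

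Shared promoter sequence held more summits per base than sequence in the window of 1 gene. Windows of 2 or more genes covered 2.72 Mb, which was 10.3% of the 26.3 Mb in all promoter windows, and held 126 summits per Mb. Windows of 1 gene covered 23.6 Mb and held 49.7 summits per Mb, so that the density was 2.53 times as high in shared sequence. Sequence in a shared window lies closer to a start by construction, so densities were also set side by side at equal distance to the nearest start. The ratio was 2.21 within 100 bp, 2.17 at 101 to 200 bp, 2.53 at 201 to 300 bp, 1.83 at 301 to 500 bp and 1.98 beyond. In sequence between genes alone, the ratio ran from 1.75 to 2.55 over the same distances and was 2.76 in all, with 205 against 74.3 summits per Mb. By chromosome, the ratio was 1.38 on X and 2.15 to 3.36 on the autosomes. A base in a shared window counts once although it lies in the windows of 2 or more genes, and density per gene was not computed. These ratios describe 1 list and carry no test.

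**Figure D1:**
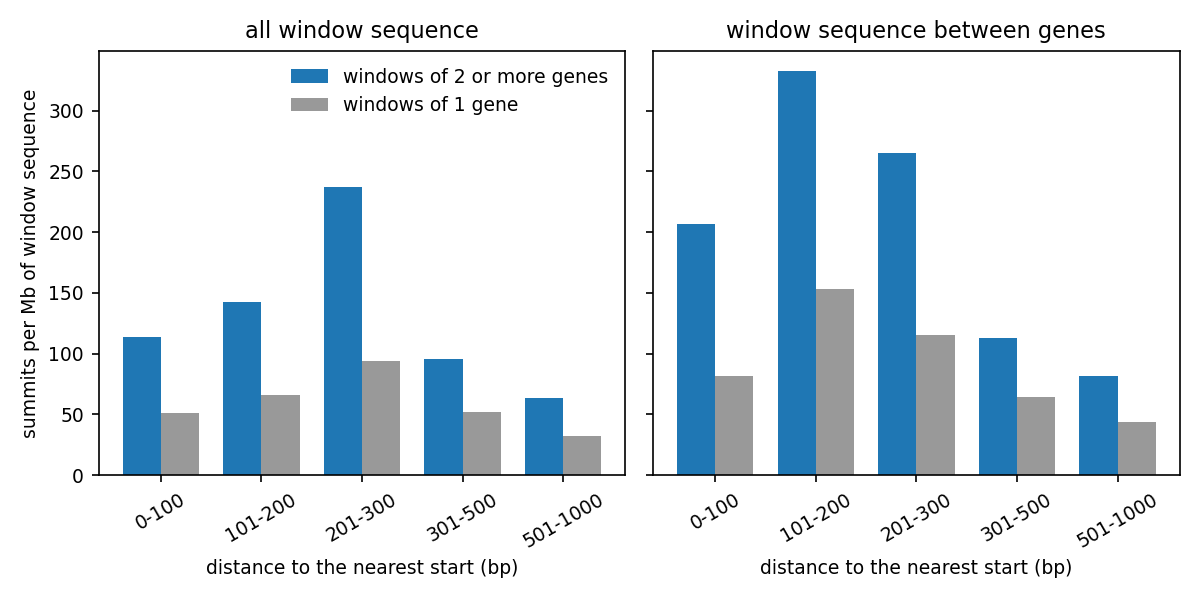
Summits per Mb of window sequence (vertical axis) by distance to the nearest transcript start in bp (horizontal axis), in windows of 2 or more genes (blue) and of 1 gene (grey), for all window sequence and for sequence between genes. The blue bar is the taller at every distance, and both kinds of window thin out beyond 300 bp.

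Most shared summits lay at head-to-head pairs. They numbered 293, or 91.3% of the 321 summits in the windows of exactly 2 genes (Wilson interval 87.7 to 93.9), where head-to-head windows made up 85.7% of the bases. Same-strand pairs held 28 summits, 8.72% of the 321, in 13.8% of the bases. Densities were 131 summits per Mb in head-to-head windows and 78.0 in same-strand windows. Windows of 3 genes held 21 summits at 188 per Mb, in 0.111 Mb. Opposite-strand starts that face each other share 14512 bases of window and held 0 summits. Of all 4351 gene pairs with overlapping windows, 377 held a shared summit, which is 8.66%. The share was 10.3% of 3190 head-to-head pairs (327) and 4.42% of 1130 same-strand pairs (50). The pair counts, and the averages and densities that follow, include each pair of genes within windows of 3 genes. The 293 head-to-head and 28 same-strand summits above do not, so a same-strand pair here can belong to a window that also holds a head-to-head pair. Shared window averaged 770 bp for a head-to-head pair and 427 bp for a same-strand pair, and per Mb of it 133 and 104 pairs held a summit.

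The share of head-to-head pairs with a summit was highest where the starts lie 250 to 500 bp apart. There 107 of 583 held one (18.4%, Wilson interval 15.4 to 21.7). The share was 44 of 425 (10.4%, 7.80 to 13.6) for closer starts and 127 of 910 (14%, 11.9 to 16.4) at 500 to 1000 bp. It was 43 of 668 (6.44%, 4.81 to 8.56) at 1000 to 1500 bp and 6 of 604 (0.993%, 0.456 to 2.15) beyond. The window rule sets how much window such pairs share, which averaged 741, 860, 1088, 755 and 240 bp a pair from the closest starts to the widest. Per Mb of shared window, 140, 213, 128, 85.3 and 41.4 pairs held a summit in the same order, the last from 6 pairs. Same-strand pairs held a summit in 18 of 132 with starts under 250 bp apart, 5 of 89 at 250 to 500 bp, 27 of 545 at 500 to 1000 bp and 0 of 364 at 1000 to 1500 bp. Per Mb these were 118, 69.8, 121 and 0 pairs, so that the closest pairs and those at 500 to 1000 bp, which differ in share, had nearly equal densities. These values carry no test.

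Head-to-head summits lay mostly between the starts. The window rule, with 1000 bp upstream and 200 bp downstream, itself limits how far inside a gene they can lie. In 277 of 293 (94.5%) the summit was upstream of both starts, and 259 (88.4%) fell in sequence between genes. Median distances were 164 bp to the nearer start (quartiles 90.0 to 253) and 371 bp to the farther one (242 to 611), with starts 543 bp apart (338 to 839). Of the 277, 140 lay in the central part of the gap, when the gap is divided into 3 equal parts. Where the starts lie 1500 bp or more apart, the rule allows no other part. The share of window bases in each part was not computed. The nearer start was on the plus strand in 165 of 293. Over all 342 shared summits, the nearest start was a median of 160.5 bp away, against 249 bp for single-gene summits, but the window rule itself limits these distances. Of the 342, 293 fell in sequence between genes, which made up 1.43 Mb of the 2.72 Mb of shared window. The others were 3 in a coding exon, 18 in an intron and 28 in a UTR or other exon.

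**Figure D2:**
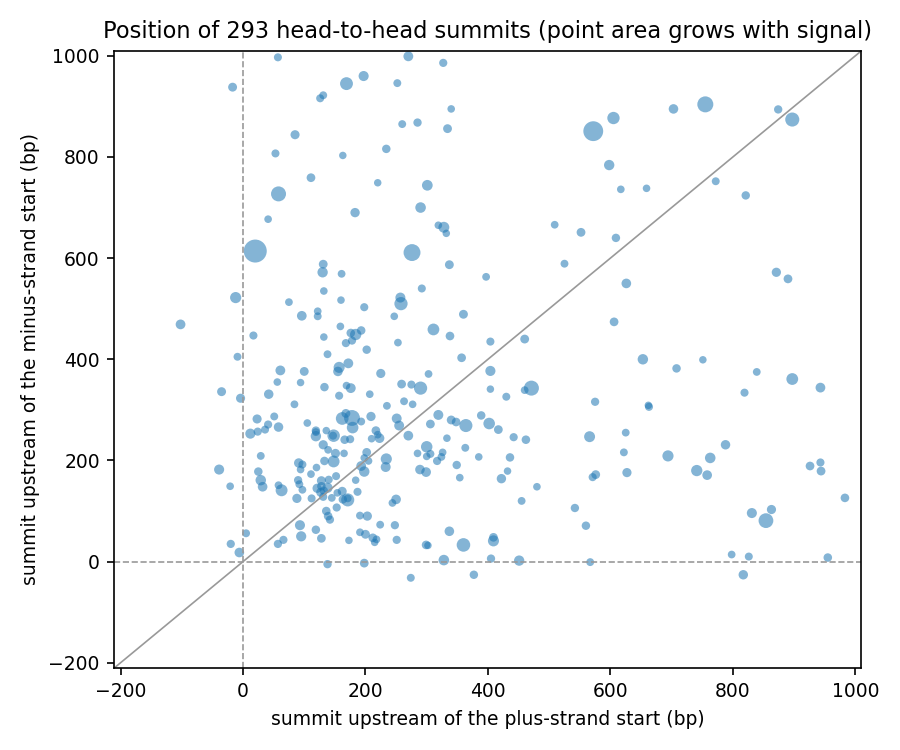
Position of the 293 head-to-head summits, as bp upstream of the plus-strand start (horizontal axis) and of the minus-strand start (vertical axis), with point area growing with signal, dashed lines at the starts and a diagonal of equal distance. The 277 points right of and above both dashed lines lie between the starts, and they spread to both sides of the diagonal.

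The strongest shared summit belonged to K08F9.4 and K08F9.1, the latter a predicted major facilitator transporter. It lies on chromosome V at position 15143999, between the starts but inside an annotated UTR or other exon, 20 bp from the nearer start and 614 bp from the other. Signal is the authors' own peak value on a scale that those sources do not state. It is read within 1 list only. The K08F9.4/K08F9.1 summit had a signal of 463 in the thresholded list, 185 in replicate 2 and 267 in replicate 3. It ranked 15 by signal in replicate 2 and 14 in replicate 3.

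The summit between tag-340 and nhl-2 had a signal of 338 in the thresholded list, 157 in replicate 2 and 180 in replicate 3. nhl-2 encodes a TRIM-NHL protein that acts with microRNAs in developmental timing, and it was the 1 heterochronic gene of 4 with an overlapping window that had a shared summit. The summit lies 572 bp from the nearer start and 851 bp from the other. The tag-353/cup-2 summit had a signal of 240 (101 and 140 in replicates 2 and 3). cup-2 encodes Derlin-1, which acts in the removal of proteins from the endoplasmic reticulum. The ipla-6/mif-4 summit, next to genes for a patatin-like phospholipase domain protein and a macrophage migration inhibitory factor relative, had 212 (89.0 and 122). It lies 755 and 904 bp from the starts, near the far limit of both windows.

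Of the other 6 among the 10 strongest, 4 lay at genes of protein synthesis, 3 at cytosolic ribosomal protein genes and 1 at a translation factor gene. Among all 342 shared summits, 35 lay at genes of the first list and 11 at genes of the second. The Y17G9B.5/rpl-20 summit, between a gene for a mitochondrial ECSIT relative and one for a large-subunit ribosomal protein, had a signal of 208 (87.1 in replicate 2 and 121 in replicate 3). The rpl-15/K11H12.8 summit had 183 (99.1 and 86.6), and the rpl-12/lin-54 summit had 146 (73.3 and 70.7). lin-54 encodes a DNA-binding subunit of the DREAM complex, a repressor of cell cycle genes. The iff-2/F54C9.14 summit, next to a gene for translation factor eIF5A, had 177 (61.0 and 107). The other 2 were tasp-1/K01G5.10 at 183 (80.5 and 102) and mdh-1/F46E10.3 at 158 (81.6 and 83.9). mdh-1 encodes the cytoplasmic malate dehydrogenase. All 10 were head-to-head, as were 85.7% of the 342 shared summits. Of the 100 strongest nuclear summits 8 were shared, against 342 of all 3031.

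The 10 strongest included none of the 28 same-strand summits, which were 8.19% of the 342. The median signal of the same-strand summits was 53.1, against 42.2 at head-to-head pairs. The strongest same-strand summit, at sec-61.G and F32D8.13 on chromosome V at position 10897377, had a signal of 122 (61.7 in replicate 2 and 60.5 in replicate 3). sec-61.G encodes the gamma subunit of the channel that moves proteins into the endoplasmic reticulum, and F32D8.13 a phosphomevalonate kinase. The summit is upstream of both, 234 bp from the start of sec-61.G and 834 bp from that of F32D8.13. The tub-2/Y71G12A.5 summit had 113 (54.7 and 56.8), perm-5/C55C3.73 had 98.0 (46.6 and 49.8), and rps-28/Y41D4B.4 had 97.9 (56.3 and 35.5). F57A8.1/T06E8.8 had 92.4 (36.6 and 55). In 15 of the 28 same-strand summits the bodies of the genes overlap in the annotation, as at tub-2, perm-5 and F57A8.1, against 11 of 293 at head-to-head pairs. Head-to-head genes point away from each other from the starts used, so the class rule itself limits such overlap. The collagen genes col-160 and col-159, whose annotated starts are 12 bp apart, shared a summit of signal 81.9 (35.6 and 47.7).

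In windows of 3 genes, the strongest summit lay at rps-14, rpl-36 and ndab-2 with a signal of 97.8 (46 in replicate 2 and 49.6 in replicate 3). rps-14 and rpl-36 encode a small-subunit and a large-subunit ribosomal protein. W03C9.5/rab-7/mex-1 followed with 74.3 (37.8 and 42.7), rab-7 being a GTPase of late endosomes. At rab-18/kbp-4/par-2 the thresholded signal was 66.9, with 17.1 in replicate 2 and 47.2 in replicate 3. par-2 encodes a RING protein of embryonic polarity.

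A few pairs held 2 summits. There were 7 such pairs of the 377. At aco-2, which encodes mitochondrial aconitase, and eef-1B.1, a translation elongation factor gene, the summits had signals of 81.8 (24.8 in replicate 2 and 51.2 in replicate 3) and 79.1 (32.7 and 45.2). The first lies 301 bp from a start of aco-2 and the second 3 bp from a start of eef-1B.1. At icd-1, which encodes a relative of BTF3, and vps-32.1, an ESCRT gene, signals were 76.3 (28.3 and 47.3) and 33.4 (14 and 15.4). At T26A8.4 and pdtf-1 they were 72.0 (40.4 and 37.3) and 41.2 (17.7 in each replicate).

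Shared and single-gene summits did not differ in signal past the threshold. The median was 42.9 (quartiles 33.1 to 61.3, range 27.4 to 463) for the shared and 43.9 (33.7 to 64.8) for the single-gene summits. Signal was above the median of all promoter summits, 43.6, in 166 of 342 shared (48.5%) and 591 of 1173 single-gene summits (50.4%). The odds ratio was 0.929 (95% interval 0.724 to 1.19, adjusted p = 0.774 by two-sided Fisher's exact tests with Benjamini-Hochberg adjustment over 8). Head-to-head summits had a median of 42.2, same-strand summits 53.1 and summits in windows of 3 genes 48.5. Of head-to-head summits 46.4% were above the promoter median, and 64.3% of same-strand summits were. That odds ratio was 0.482 (0.192 to 1.15, adjusted p = 0.207 by Fisher's exact test), which leaves a difference in either direction within the interval. In these tests a p-value covers the counting of summits in this 1 list and not the spread between animals.

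Both replicates held most shared summits. The thresholded list was made from these same 2 replicates, so finding its summits in them was largely set in advance. A peak of the relaxed list, which keeps weak peaks and background, had its summit within 100 bp of 328 of the 342 in replicate 2 and of 335 in replicate 3. For the 1173 single-gene summits the counts were 1121 and 1145. Counting only the 3060 strongest peaks of each relaxed list, replicate 2 held 266 (77.8%), replicate 3 held 283 (82.7%) and both held 220 (64.3%). Over all nuclear summits, 62% were among the strongest of both, and over single-gene summits 59.9% were. The odds ratio of shared against single-gene was 1.21 (0.932 to 1.56, adjusted p = 0.296 by Fisher's exact test). With summits required to lie within 50 bp it was 1.37 and passed the threshold (adjusted p = 0.0313 by Fisher's exact test). Head-to-head and same-strand summits had shares of 64.8% and 64.3%, with an odds ratio of 1.02 (0.407 to 2.44, Fisher's exact test, adjusted p = 1). Across the 322 shared summits found in both relaxed lists, the Spearman correlation of signals was 0.480, as a description, against 0.535 over 1095 single-gene summits. An uneven case is aars-1/rga-1, at an alanyl-tRNA synthetase gene, with a signal of 5.12 in replicate 2, 48.1 in replicate 3 and 60.5 in the thresholded list.

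**Figure D3:**
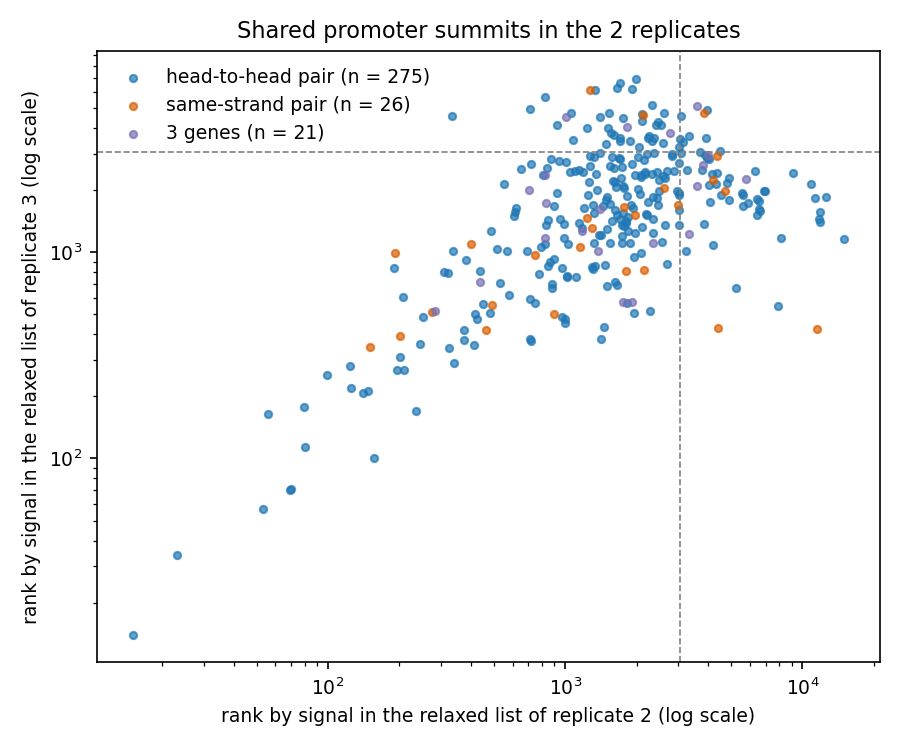
Rank by signal in the relaxed list of replicate 2 (horizontal axis) against rank in replicate 3 (vertical axis), both on log scales with rank 1 the strongest, for the 322 shared summits found in both lists, coloured by class. Dashed lines mark rank 3060, and the strongest summits, at the lower left, keep similar ranks in both lists while weaker ones scatter.

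PRDM1 core words were less frequent at shared summits than at single-gene summits. AGTGAAAG or AGCGAAAG, the core of the sequence known to be bound by mammalian PRDM1, stood within 50 bp of 8 of 342 shared summits (2.34%, Wilson interval 1.19 to 4.55). They stood at 83 of 1173 single-gene summits (7.08%, 5.74 to 8.69) and at 7.09% of all 3031 nuclear summits. The odds ratio was 0.315 (0.130 to 0.658, adjusted p = 0.00267 by Fisher's exact test). Of the 8, 5 had AGTGAAAG and 3 AGCGAAAG. Among head-to-head summits 7 of 293 had a core word, and 0 of 28 same-strand summits did, which allows a share of up to 10.7% (Fisher's exact test, adjusted p = 1). No match says only that these letters are not in the window.

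The 8 summits with a core word were led by nuo-1/rpl-36.A, with a signal of 136 (62.4 in replicate 2 and 75.5 in replicate 3), and C02E7.7/C02E7.6 with 133 (63.2 and 77.4). nuo-1 encodes a subunit of respiratory complex I. The bath-36/cyn-7 summit, 12 bp from the nearer start, had 90.9 (38.2 and 51.7). cyn-7 encodes a cyclophilin. The others were at aco-2/eef-1B.1, rpl-39/rps-30/C26F1.3, strm-1/cic-1, rop-1/nhr-232 and nol-10/cec-5. Their names were listed in full because they are few, not by a rule.

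The difference in core words was also computed within ranges of distance and base composition. Within 200 bp of a start the shares were 1.38% of shared and 8.61% of single-gene summits (odds ratio 0.149, adjusted p = 0.000357 by Fisher's exact test), and beyond 200 bp they were 4% and 5.99% (0.655, adjusted p = 0.844). Among summits of GC content at or below the promoter median the odds ratio was 0.225 (adjusted p = 0.0370 by Fisher's exact test), and above it 0.513 (adjusted p = 1). Whether these odds ratios differ from each other was not tested. These splits were chosen after the values were seen. The call was also lost with words within 25 bp (adjusted p = 0.207 by Fisher's exact test) and in the stronger peaks above the list's middle rank (adjusted p = 0.0753 by Fisher's exact test).

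Shared summits lay in DNA richer in G and C. The median GC content of the 101 bp windows was 47.0% at shared and 43.6% at single-gene summits. It was above the promoter median of 44.6% at 202 of 342 shared summits (59.1%) and 509 of 1173 single-gene summits (43.4%), an odds ratio of 1.88 (1.46 to 2.42, adjusted p = 3.23e-06 by Fisher's exact test). Head-to-head summits passed that level in 59.7% and same-strand summits in 46.4% (odds ratio 1.71, 0.728 to 4.06, adjusted p = 0.365 by Fisher's exact test). The words AGACGCAG and GAGAGAGA came from an earlier scan of these same summits, so their counts are a description. AGACGCAG stood at 35 of 342 shared summits (10.2%), 8.18% of single-gene summits and 8.05% of all. GAGAGAGA stood at 15 of 342 (4.39%), 8.27% and 9.11%.

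**Figure D4:**
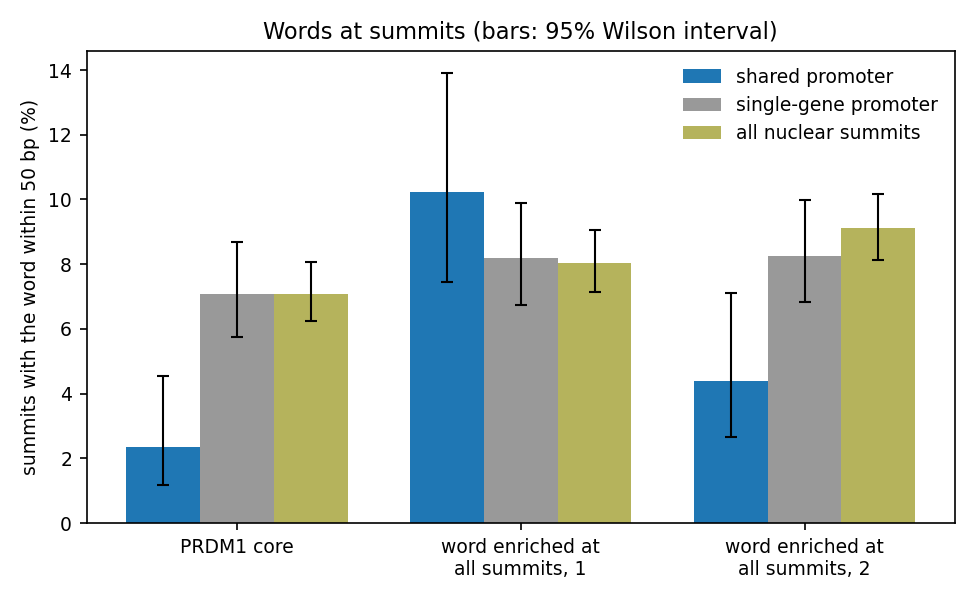
Share of summits in percent (vertical axis) with a word within 50 bp, at shared promoter, single-gene promoter and all nuclear summits, with 95% Wilson intervals as error bars. The groups of bars are the PRDM1 core (AGTGAAAG or AGCGAAAG), AGACGCAG (labelled 1) and GAGAGAGA (labelled 2), and the shared bar is the lowest for the core and for GAGAGAGA.

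Genes with a shared summit numbered 691 of 19973 protein-coding genes (3.46%), and 678 of them had no single-gene summit as well. A gene can have a shared summit only where its window overlaps that of another gene, as in 7246 genes, of which 9.54% had one. Cytosolic ribosomal protein genes stood at 38 of 61 such genes (62.3%). DnaJ and heat shock genes, which encode chaperones, stood at 11 of 26, translation factors at 10 of 24, splicing genes at 12 of 31 and proteasome genes at 10 of 27. The tRNA synthetases had 5 of 18, the respiratory chain 7 of 29, the CCT chaperonin 2 of 8, the vacuolar ATPase 2 of 9 and microRNA machinery 2 of 6. Any promoter summit, shared or single-gene, was found at 1767 of all 19973 genes and at 56 of 81 cytosolic ribosomal protein genes. It was found at 15 of 51 DnaJ and heat shock genes, 14 of 39 translation factors, 15 of 38 splicing genes and 12 of 33 proteasome genes. These shares carry no test, and the lists were drawn up with earlier results of these data known.

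The remaining lists lay at 14.3% or lower, except heterochronic genes, given above with nhl-2. Cuticle collagens had 8 of 56, mitochondrial ribosomal proteins 4 of 41, nuclear hormone receptors 4 of 53, homeobox genes 1 of 13 and histones 2 of 69. Chemoreceptors had 4 of 328 and C-type lectins 0 of 93. The chemoreceptor list was corrected after its values were seen, because its first form also took in genes that are not receptors. The 1 molting gene with an overlapping window had none. Any promoter summit, shared or single-gene, was found at 9 of 22 molting and 9 of 16 heterochronic genes. It was found at 33 of 175 cuticle collagens, 36 of 269 nuclear hormone receptors and 8 of 70 mitochondrial ribosomal protein genes. For homeobox genes this was 3 of 68, for histones 4 of 72, for chemoreceptors 8 of 1309 and for C-type lectins 0 of 240. Members of these lists included nhr-68, a nuclear hormone receptor gene whose summit with H12C20.7 had a signal of 89.0 (44.6 in replicate 2 and 40.2 in replicate 3). At ceh-38, a one cut homeobox gene next to malt-1, the signal was 52.3 (20.7 and 33.3). At the histone genes his-68 and his-67, beside the argonaute gene alg-5, it was 48.8 (29.3 and 22.7).

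**Figure D5:**
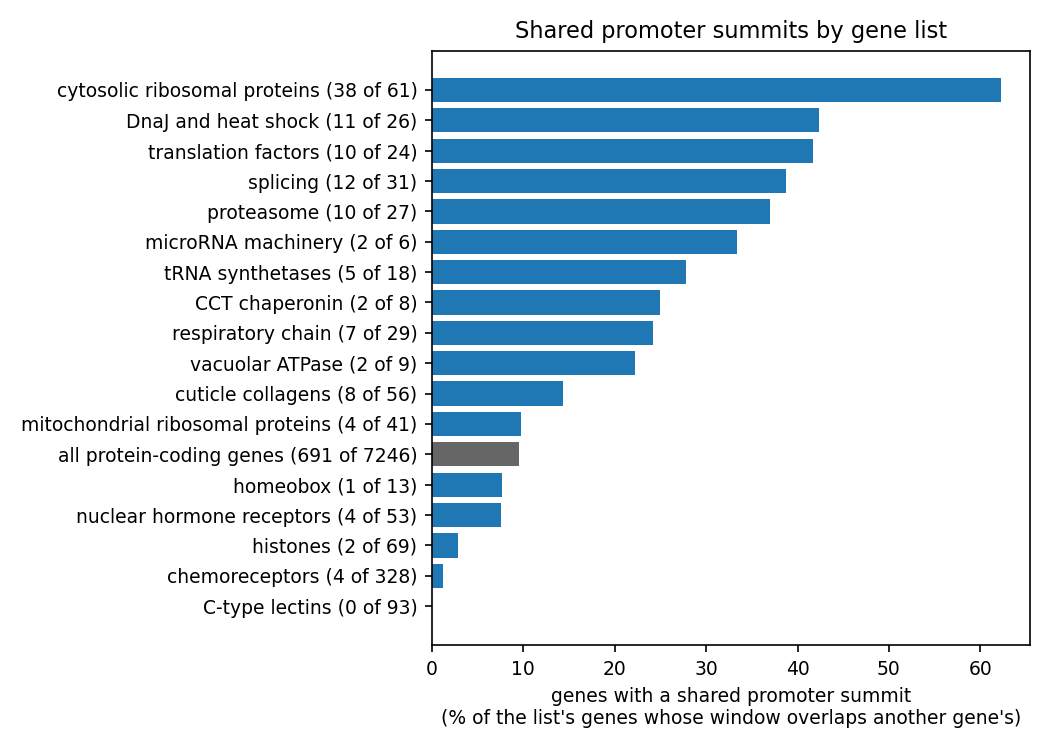
Percent of a list's genes with a shared promoter summit (horizontal axis), among the genes whose window overlaps that of another gene, for each list with at least 5 such genes, with the counts in brackets and all protein-coding genes in grey. Cytosolic ribosomal proteins stand at 62.3% and all genes at 9.54%.

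At ribosomal protein genes the summit was as often nearer to the partner as to the ribosomal gene. Of 32 summits in the windows of 2 genes of which exactly 1 encodes a ribosomal protein, 29 were head-to-head, and the ribosomal start was the nearer in 16 and the partner's in 16. The distance to the ribosomal start had a median of 283.5 bp (quartiles 245 to 343), and that to the partner's start 229 bp (174 to 412). The 18 single-gene summits at ribosomal protein genes lay a median of 284 bp from the start (248 to 336). Their median signal was 42.1, against 63.6 (45.5 to 103) for the 32. Of the 32, 1 had a core word and 0 were on the X chromosome, against 2.34% and 5.26% of all 342 shared summits. A count of 0 allows up to 3 of the 32. How many ribosomal protein genes with overlapping windows lie on X was not counted.

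Of the 342 shared summits, 108 had a gene of any list. How many of all gene pairs with overlapping windows have 2 genes of the same list was not counted. At 8 of the shared summits, 2 of the genes belonged to the same list. These were rps-14/rpl-36 with ndab-2, rpl-39/rps-30 with C26F1.3, rpl-24.1/rps-10, his-68/his-67 with alg-5, the collagen pairs col-160/col-159 and col-3/col-117, and the splicing pairs rsp-1/rsp-2 and snr-3/rsp-5. At 6 others the genes belonged to different lists, namely nuo-1/rpl-36.A, rpn-3/hsp-110, mrpl-49/rpl-28, rpl-5/col-38, nhr-47/dnj-19 and rps-9/lsm-1. The rpn-3/hsp-110 summit, between a proteasome subunit gene and a chaperone gene, had a signal of 101 (48.5 in replicate 2 and 50.9 in replicate 3). The strongest shared summits of some other lists had 1 list gene each. The prp-8/bath-42 summit, at a core splicing factor gene, had 78.9 (34.3 and 42.8). The mig-5/cct-1 summit, between a dishevelled gene and a chaperonin subunit gene, had 67.0 (26.3 and 37.5). At F29B9.11, jmjd-1.2 and mrps-21 the signal was 66.8 (16.0 and 47.0), and at C17H12.2/vha-8 it was 57.3 (25 and 28.5). For amph-1 and the chemoreceptor gene srm-3 it was 44.3 (17 and 29.7).

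Few shared summits were on the X chromosome. It held 18 of the 342 (5.26%) and 277 of the 1173 single-gene summits (23.6%), and 4.51% of its window bases were shared, against 10.7% to 12.3% on the autosomes. Per Mb of shared window, the X chromosome had 103 summits and the autosomes 93.2 (V) to 201 (III), with 108 on II and 110 on IV. Windows of 1 gene had 74.9 summits per Mb on X and 35.6 to 59.8 on the autosomes. Windows of snoRNA genes also held 16 of the shared summits (4.68%) and 25 of the single-gene summits (2.13%), as counts without a test. Windows of microRNA genes held 2 of the shared summits (0.585%), at ekl-4/rps-20 and rfc-4/eef-1A.1, and 4 of the single-gene summits (0.341%). Genes annotated as ncRNA had 58 of 342 and 185 of 1173, and those as antisense RNA 0.292% and 0.256%. The share was lower at shared summits for piRNA (1.46% against 2.47%) and lincRNA (0.292% against 0.938%). It was also lower for tRNA, snRNA and pseudogenes. These counts carry no test either.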

How the data were processed

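The authors deposited peak lists on build ce11 for each of the 2 replicates (relaxed lists with background) and a thresholded list made from them against a control library, which is not analysed here. Per the file headers and layout, the signal column is the peak caller's own value, deposited by the authors on an unstated scale. No ranking used the deposited −log10 q values, and the deposited summit offset, another number per peak, placed the summit (start plus offset, 3 summits set to the last base of the peak). Aligner and caller, with their versions: not given in the sources used here.

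Transcript starts came from Ensembl release 115 (19973 protein-coding genes). For each gene the nearest start whose window held the summit was used. Members and gene lists were chosen with earlier results of these data known. Shares were compared by Fisher's exact test (two-sided) with Benjamini-Hochberg adjustment over 8 tests and a threshold of 0.05, and intervals are Wilson's at 95%. A count of 0 was read as allowing up to 3 counts. Named genes are those at the 10 strongest shared summits, the strongest of each class and list, pairs with the most summits, and the strongest with a core word. The class calls and tests were tested on simulated data. Calculations used SciPy 1.17.1 and NumPy 2.4.6 under Python 3.11.15, with matplotlib 3.10.9 for figures. The alternatives tried were upstream reaches of 500 and 2000 bp, the outermost start of each gene, the stronger peaks above the list's middle rank, 1 summit kept within 100 bp, pairs with overlapping bodies left out, each replicate's strongest peaks alone, and other motif and overlap distances. Splits by distance, GC content, autosomes, ribosomal genes and position between genes were added after seeing the data.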

Additional observations from a re-analysis of the deposited data

How the results depend on the processing

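The number of shared summits was 222 with windows of 500 bp upstream, 602 with 2000 bp and 161 in the stronger peaks above the list's middle rank. It was 329 without replicate 2 and 323 without replicate 3, in lists of the other replicate's strongest peaks. The head-to-head share of summits at 2 genes was 96.8% with 500 bp, 80.6% with 2000 bp and 95.6% with overlapping gene bodies left out. Median signal was 62.5 in the stronger peaks above the list's middle rank, and 26.1 without replicate 2 and 18.0 without replicate 3, on those lists' own scales.

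The GC difference between shared and single-gene summits held in 11 of 11 alternatives (odds ratios 1.56 to 2.03, adjusted p from 4.64e-07 to 0.00493 by Fisher's exact test). In this count and the next, 1 alternative repeats the main result. Keeping 1 summit within 100 bp removed no shared or single-gene summit. The core word difference held in 14 of 18, with odds ratios from 0.149 to 0.655 and adjusted p from 0.00016 to 1. It missed the threshold with words within 25 bp (0.420, adjusted p = 0.207 by Fisher's exact test), in the stronger peaks above the list's middle rank (0.394, 0.0753), beyond 200 bp (0.655) and above the median GC content (0.513). Those settings use fewer words or summits. The settings within 200 bp (0.149) and at or below the median GC content (0.225) also use fewer summits and passed the threshold. The cause was not tested. The share in both replicates passed it with summits within 50 bp (1.37).

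Odds ratios that crossed 1 missed the threshold on both sides. For the share in both replicates, head-to-head against same-strand, they were 0.945 (high GC content), 0.669 (beyond 200 bp), 0.784 (between genes) and 0.283 (500 bp windows). For core words in that comparison the differences were -0.12 percentage points (2000 bp) and -1.88 (without replicate 3), against 2.39 with all summits and 2.84 without replicate 2. The odds ratio was, for GC content, 0.261 (500 bp) and, for signal, 1.01 (overlapping bodies left out). For signal of shared against single-gene summits the value was 1.08 (beyond 200 bp). No paired analysis was possible because the samples form 1 group. Without read counts the depth behind each summit is unknown, and the 28 same-strand summits limit every comparison with them.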
